A study of Mus musculus with 46 samples.

Results

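The cytosolic ribosomal protein genes were taken as the protein-coding genes of GRCm38 whose symbol starts with Rpl or Rps and a digit, without the Rps6k kinases, together with Rplp0, Rplp1, Rplp2 and Rpsa. The rule gave 91 of the 21631 protein-coding genes, 56 with Rpl and 35 with Rps symbols, on 19 chromosomes. It used names only and no measured value. Of the 91, 77 encode subunits of the standard ribosome. The other 14 are 8 paralogs, 5 retrogene or pseudogene symbols, and Rps19bp1, which encodes a protein that binds Rps19 and is no subunit. Each gene was read in a window of 5000 bp centred on the gene end that peaks covered better.

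Livers of female FVB mice on standard chow, 11 weeks old, were studied by native chromatin immunoprecipitation, in which unfixed nuclei are cut with micrococcal nuclease and histone marks are pulled down with antibodies. PA mice were hypomorphic for Pcca (labelled Pcca-/-, A138T) and were compared with WT mice. Pcca encodes a subunit of propionyl-CoA carboxylase, and PA stands for the disease that its loss causes in people, propionic acidemia; the labels do not say how the A138T allele is carried. Acetylation (H3K27ac, H3K9ac, H4K16ac) and butyrylation (H4K16bu) were profiled in preparations labelled A, and H4K5ac, H4K5pr, H4K12ac, H4K12pr and H4K16pr, where pr is propionylation, in preparations marked B. There were 2 PA and 2 WT libraries for each of these 9 antibodies, 36 in all, and 2 more WT libraries used an in-house H4K16pr antibody. Whether preparations 1A and 1B, or 2A and 2B, share a liver is not labelled, so p-values measure the spread between preparations only.

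Every ribosome holds one copy of nearly every ribosomal protein, made from genes scattered over the genome, so the genes are transcribed at high and similar rates. Their promoters typically lack a strong TATA box and start in a pyrimidine tract, the TOP motif, through which growth signals control translation of the mRNA. Acetyl groups and the longer acyl groups propionyl and butyryl on histone lysines are laid down from the matching acyl-CoA and are found at active gene starts.

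The promoter sequences below lie within the windows that were measured. They cover 60 bases before and 20 bases from the annotated start of 5 genes (RefSeq, GRCm38.p6, gene strand, 5′ to 3′). Capitals mark CTTTC (a core of the TOP tract), CCGGAAG (an ETS-type site, such as GABP binds), TCGCGA (the core of a palindrome of housekeeping promoters) or TATAAA on either strand. Rpl5 is shown because its coverage passed the test, Rpl7a and Rpl12 had the largest differences, Rpl26 holds 3 of the 4 motifs, and the summed peak length at Rps16 passed its test.
Rpl5: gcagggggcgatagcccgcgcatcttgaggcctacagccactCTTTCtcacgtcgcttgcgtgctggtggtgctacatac
Rpl7a: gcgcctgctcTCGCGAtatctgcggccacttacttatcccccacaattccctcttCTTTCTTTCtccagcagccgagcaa
Rpl12: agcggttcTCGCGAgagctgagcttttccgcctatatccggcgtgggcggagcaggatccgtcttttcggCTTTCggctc
Rpl26: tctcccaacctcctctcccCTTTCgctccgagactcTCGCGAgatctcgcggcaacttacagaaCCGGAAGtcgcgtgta
Rps16: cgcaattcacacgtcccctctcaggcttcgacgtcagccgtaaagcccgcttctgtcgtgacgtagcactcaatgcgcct
These stretches lie on the plus strand, Rpl5 at chr5:107900468-107900547, Rpl7a at chr2:26910747-26910826, Rpl12 at chr2:32961652-32961731, Rpl26 at chr11:68901506-68901585 and Rps16 at chr7:28350629-28350708.

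A RefSeq start was on hand for 70 of the 91 genes and for 17274 protein-coding genes in all. CTTTC on the gene strand between 10 bases before and 15 bases after the start was found in 16 of the 70 genes (22.9%), against 2.98% of all starts. Rpl7a, Rpl12 and Rpl18 have it there, and in Rpl5 it lies further upstream of the annotated start, chr5:107900528. The gene end of Rpl5 at chr5:107900508, on which its window was centred, lies 20 bp before that start and next to the motif. Over 300 bases and both strands, CTTTC was found in 80.0% of the ribosomal protein genes and 55.1% of all genes, CCGGAAG in 35.7% and 12.2%, TCGCGA in 18.6% and 3.53%, and TATAAA in 11.4% and 13.3%. A CTTTC and a CCGGAAG can share a C, and the other motifs were searched in the same way on both strands. The matches describe the letters and are no measure of binding.

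Marks were present at nearly all of the genes. A peak lay in the window in all 36 libraries for 69 of the 91 genes (75.8%), against 39.3% of all protein-coding genes. Another 18 had a peak in some libraries, and 4 (Rpl10l, Rpl31-ps12, Rpl39l and Rps27rt) were listed at 0 in all 36. Rpl10l and Rpl39l are known as paralogs used in the testis. The 87 genes with a peak in at least 2 libraries were tested among 15225 genes. The mean covered length over the 36 libraries ran from 1312.5 bp at Rpl19 to 4853.6 bp at Rpl18 among the 77 standard genes. Rpl18, Rpl36 (4602.5 bp), Rpl13a (4600.2 bp), Rpl35a (4560.6 bp) and Rpl17 (4398.0 bp), all of the large subunit, were close to the 5000 bp that the window can hold. The lowest 5 were Rpl34-ps1 (104.6 bp), Rpl19, the X-linked Rps4x, Rpl32l (1410.7 bp) and Rpl37rt (1538.7 bp).

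Of the 13 paralog and retrogene symbols, 5 lay below the lowest standard gene, the 4 listed at 0 and Rpl34-ps1. Of the others, Rpl7l1 averaged 3916.1 bp, Rpl3l, known as the paralog of striated muscle, 3688.8 bp, and Rpl36al, an autosomal retrocopy of the X-linked Rpl36a, 3602.2 bp. Rps23rg1 averaged 2512.9 bp, Rps27l 2269.8 bp and Rpl22l1 1922.5 bp. The windows of 3 lie away from the annotated start, that of Rpl3l at the end next to Msrb1, that of Rpl7l1 at the end next to 2310039H08Rik and that of Rpl37rt at its 3′ end, so this coverage cannot be assigned to these genes themselves. At the annotated starts Rpl7l1 was covered over 3019 bp in PA and 2884 bp in WT, Rpl3l over 726 bp in PA and 473 bp in WT, and Rpl37rt over 7.45 bp in PA and 25 bp in WT. Reads from near-identical copies could also be shared, and the sources used here do not state how such reads were placed. An end of another protein-coding gene lay in 37 of the windows, and these had a median of 3473.6 bp, against 2617.9 bp in the 50 tested windows without one. For 8 of the 70 genes with a known start, Rpl18, Rpl19 and Rpl35a among them, the start lies outside the window. At its annotated start Rpl19 was covered over 3334 bp in PA and 3128 bp in WT. The low rank of Rpl19 is that of a window at the end next to Cacnb1. At its annotated start Rpl18 was covered over 3794 bp in PA and 3734 bp in WT, less than Rpl13a there (4833 bp in PA and 4413 bp in WT). Rpl35a, whose window lies at the end next to Lmln, was covered over 3030 bp in PA and 3102 bp in WT at its annotated start.

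Coverage was then compared between PA and WT livers. Ribosomal protein genes were covered more widely in PA for 86 of 87 genes by the mean, against 84.5% of all tested genes. The median gene had 3143.75 bp in PA and 2687.6 bp in WT, and the median of the differences was 433.9 bp. Over all 15225 genes the medians were 2544.6 bp in PA and 2164.6 bp in WT, with a median difference of 245.2 bp. Coverage rose at 3 of the 87 genes, Rpl5, Rpl17 and Rps19bp1, and fell at 0 (limma on the mean over antibodies, fitted on genotype and on the letter A or B, adjusted p under 0.05 by Benjamini-Hochberg). Of all tested genes 4.51% rose and 0.256% fell, so the share called among the ribosomal protein genes was near the background. At an unadjusted limma p under 0.05, 35 were higher, where 28% of all genes were, and 0 were lower (1.42% of all). Both PA preparations exceeded both WT preparations, within A and again within B, for 29 genes (23.9% of all genes did), and for 0 genes was it the other way (0.966%). All 4 PA preparations were above all 4 WT preparations at 19 genes. The share of all genes with this is not given here, so that count is not set against other genes.

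**Figure D1:**
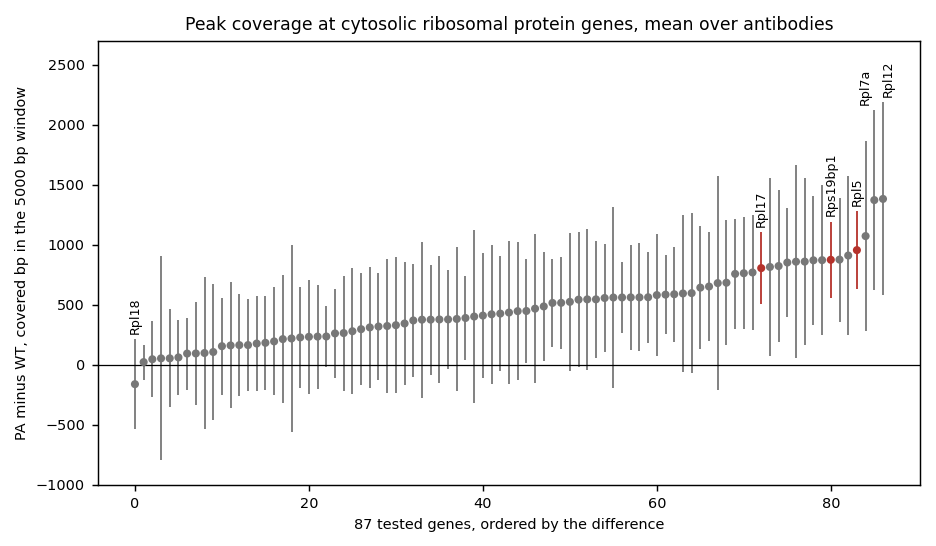
PA minus WT difference in covered bp (y axis) for each of the 87 tested genes (x axis, ordered by the difference), with the 95% interval of the limma fit, n = 4 preparations per genotype. The 3 red genes passed the adjusted threshold; 86 of the 87 points lie above 0 and only Rpl18 lies below.

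Both subunits showed the shift. The 53 tested genes of the large subunit had a median difference of 400.6 bp, with 2 that rose, and the 34 of the small subunit one of 532.2 bp, with 1 that rose. Without the 14 paralogs, retrogenes and Rps19bp1 the median of the 77 genes was 484.9 bp, and 2 rose. The 78 genes of the mitochondrial ribosome, made in the nucleus for the separate ribosome inside mitochondria, had a median difference of 297.9 bp, and 2 of them rose, Mrpl43 (4885 ± 231 bp in PA and 4163 ± 78.5 bp in WT) and Mrps36 (3892 ± 270 bp in PA and 2935 ± 284 bp in WT; SD, n = 4 preparations each). In chromatin of a whole liver, a mark in more cells and a wider mark in each cell cannot be told apart.

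Rpl5 had the smallest p. Its protein joins Rpl11 and 5S rRNA in a particle that binds the p53 regulator Mdm2 when ribosome assembly stalls. The annotated start of Rpl5 is chr5:107900528, and its window was centred on the gene end at chr5:107900508. The window was covered over 2511, 2692, 2579 and 2308 bp in PA preparations 1A, 2A, 1B and 2B, against 1663, 1497, 1446 and 1665 bp in the same WT preparations. The 2 groups did not overlap. The difference was 954 bp (limma adjusted p = 0.0151), and at the annotated start it was 957 bp (adjusted p = 0.0185). The 2 PA libraries were both above the 2 WT libraries with 7 of the 9 antibodies, all but H3K9ac and H4K12ac. The H3K27ac libraries had 3253 and 3338 bp in PA and 1596 and 1748 bp in WT, and those of H4K16ac 1722 and 2288 bp in PA and 792 and 638 bp in WT.

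Rpl17, whose protein lines the exit tunnel of the large subunit, was covered over 5000, 5000, 4822 and 4478 bp in PA and 4309, 4282, 3980 and 3512 bp in WT (1A, 2A, 1B, 2B). The lowest PA value was above the highest WT value, and the difference was 804 bp (limma adjusted p = 0.0189). H3K27ac and H3K9ac filled the window in all 8 libraries, so no increase could be seen for them. H4K16ac covered 5000 and 5000 bp in PA and 2963 and 2126 bp in WT. H4K16pr covered 5000 and 5000 bp in PA and 2687 and 3183 bp in WT. H4K5pr covered 5000 and 5000 bp in PA and 3959 and 3568 bp in WT, and H4K12pr 5000 and 5000 bp in PA and 4398 and 4396 bp in WT. PA and WT libraries overlapped for the other H4 marks. H4K16bu covered 5000 and 5000 bp in PA and 4274 and 5000 bp in WT. H4K12ac covered 5000 and 4022 bp in PA and 5000 and 3676 bp in WT. H4K5ac covered 4111 and 3369 bp in PA and 3858 and 2737 bp in WT. Without H4K16ac in the mean, the difference was 512.5 bp and did not pass (adjusted p = 0.197), nor did it pass with no filter on low values (0.0573) or without the letter term (0.0659). An end of BC031181 lies in the same window, and no annotated start was on hand for Rpl17.

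Rps19bp1 had 2848, 2755, 2831 and 2582 bp in PA, against 1875, 1910, 1772 and 1964 bp in WT, with no overlap and a difference of 874 bp (limma adjusted p = 0.0181). Its window lies at the 3′ end of the gene. At the annotated start, 3692 bp away, PA had 2010 bp and WT had 1858 bp, and the difference of 152 bp did not pass (adjusted p = 0.662). With H4K16ac left out of the mean the adjusted p was 0.0531, with windows of 5 kb each side 0.0682, and with uncapped peak lengths the difference was -0.0079 on the log2 scale. None of these 3 calls passed once A and B of a number were averaged, 2 against 2 (adjusted p from 0.0971 to 0.111), or after quantile normalization between preparations (0.0586 to 0.108). Each was also lost without 1 or more single preparations: without PA 2A (1.16% of all genes) or WT 2A (1.19%) 0 ribosomal protein genes passed and without PA 1A (1.6%) 1 passed, while without PA 2B (7.46%) 11 and without WT 2B (4.04%) 8 passed.

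**Figure D2:**
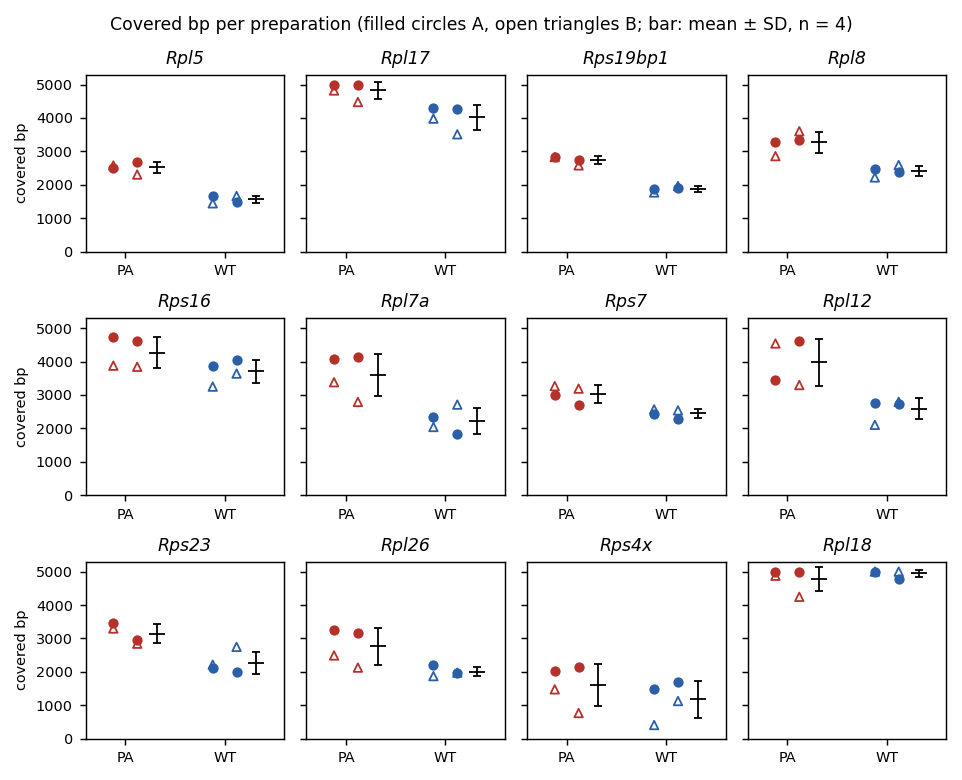
Covered bp (y axis) in each PA and WT preparation for the 10 genes with the smallest p, the X-linked Rps4x and Rpl18 (filled circles are A and open triangles B preparations; bars give the mean ± SD, n = 4). PA and WT points are apart for Rpl5, Rpl17 and Rps19bp1, which passed the adjusted threshold, and also for Rpl7a, Rpl8, Rpl12, Rps7 and Rps23. Both groups reach the 5000 bp limit at Rpl18.

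The next 7 genes by p had adjusted p between 0.0505 and 0.0667. Rpl7a, a protein of the large subunit, had 4086, 4138, 3380 and 2792 bp in PA and 2335, 1823, 2041 and 2711 bp in WT. The groups did not overlap, but the lowest PA and the highest WT preparation, both 2B, were close. The mean difference was 1371 bp (95% interval 624 to 2119 bp, limma adjusted p = 0.0527). Rpl7a was listed at 0 for H3K9ac in WT 2A, where the other 3 libraries had 4744, 5000 and 4322 bp. Windows that are empty in 1 library and covered over at least 1500 bp in the other 3 made up 0.488% of windows at ribosomal protein genes and 0.425% at all genes. For H3K9ac the shares were 1.93% (6 windows) and 1.35%. With such values set to missing, the difference at Rpl7a was 1220 bp (adjusted p = 0.0429), and 6 ribosomal protein genes rose, where 5.46% of all genes did.

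Rpl12, whose protein sits at the base of the stalk where translation factors dock, had the largest difference. It was covered over 3454, 4614, 4539 and 3296 bp in PA and 2749, 2731, 2105 and 2793 bp in WT, again without overlap, and the difference was 1381 bp (95% interval 577 to 2185 bp, limma adjusted p = 0.0605). This window lies at the 3′ end of Rpl12 next to Lrsam1. At its annotated start, shown above, the difference was 565 bp (adjusted p = 0.152). Rps23, whose protein lies in the decoding centre of the small subunit, had 3466, 2966, 3299 and 2844 bp in PA and 2114, 1996, 2216 and 2749 bp in WT, a difference of 875 bp (adjusted p = 0.0623). Rps7, another protein of the small subunit, had 2984, 2686, 3264 and 3190 bp in PA and 2417, 2266, 2569 and 2538 bp in WT (583 bp, adjusted p = 0.0576). All 4 PA preparations were above all 4 WT preparations at both genes.

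At Rps7 the histones differed. H3K27ac covered 2515 and 2670 bp in PA and 2664 and 2350 bp in WT, and H3K9ac 2647 and 2507 bp in PA and 2644 and 2467 bp in WT, so the groups overlapped for both H3 marks. H4K16bu covered 3863 and 3014 bp in PA and 2082 and 2351 bp in WT. H4K16pr covered 3627 and 3195 bp in PA and 2097 and 2290 bp in WT, and H4K5ac 2930 and 3377 bp in PA and 2317 and 2202 bp in WT. Of the 7 H4 antibodies, all but H4K12pr had both PA libraries above both WT libraries.

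Rpl18 was the only tested gene with a lower mean in PA in the window of 5000 bp at the better covered end. Its window was filled to 5000, 5000, 4877 and 4247 bp in PA and 5000, 4777, 5000 and 5000 bp in WT, a difference of -163 bp (limma adjusted p = 0.506). Without PA 2B the difference was 17.9 bp, and at the annotated start it was 59.7 bp. In windows at annotated starts the genes with a lower mean in PA were Rpl35a (-72.1 bp) and Rpl37rt (-17.55 bp). The 4 X-linked genes did not pass either. Rps4x, a small subunit gene of the X chromosome, had 2026, 2140, 1478 and 770 bp in PA and 1487, 1687, 411 and 1129 bp in WT. These ranges overlapped (425 bp, adjusted p = 0.210). Rpl10 averaged 3454 ± 246 bp in PA and 3159 ± 344 bp in WT, Rpl36a 1808 ± 293 bp in PA and 1615 ± 257 bp in WT, and Rpl39 1959 ± 679 bp in PA and 1907 ± 428 bp in WT (SD, n = 4 preparations each).

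A window of 5000 bp cannot show how far a peak runs, so the full length of every peak that touches the window was summed. In this measure 5 of the 91 genes rose, where 0.832% of all genes did, namely Rps16, Rpl8, Rpl5, Rpl17 and Rps7 (limma on log2 of the length plus 500 bp, adjusted p under 0.05). This fit kept all 21631 protein-coding genes, 5916 of them listed at 0 in all 36 libraries. The empty genes entered the adjustment and lower the share, which cannot be set beside the shares of the other fits. Rps16, whose protein reaches into the peptidyl-tRNA site, had the largest of these changes. Its summed peaks averaged 16373, 16578, 13966 and 13689 bp in PA preparations 1A, 2A, 1B and 2B, against 5540, 8412, 4360 and 5766 bp in WT. All 4 PA values were above all 4 WT values, and the difference was 1.30 on the log2 scale (adjusted p = 0.0210). In the window of 5000 bp, where the same gene had 4263 ± 468 bp in PA and 3703 ± 346 bp in WT, the adjusted p was 0.0505.

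The long PA peaks at Rps16 ran upstream of the gene. With H3K9ac, 1 peak spanned chr7:28334231-28354629 in PA 1A and chr7:28334671-28355822 in PA 2A, while the WT peaks spanned chr7:28347588-28354680 in 1A and chr7:28347163-28354739 in 2A. The right edges were alike, and the left edges, upstream of Rps16, lay further out in PA. H4K5pr peaks summed to 14315 and 14396 bp in PA and 3094 and 4676 bp in WT, and H4K16bu peaks to 8772 and 15574 bp in PA and 4179 and 4629 bp in WT. The peaks reached into Supt5, which encodes a transcription elongation factor, in 14 of 18 PA libraries and 1 of 18 WT libraries, the H3K27ac library of WT 2A with 18478 bp. The smallest contrast was that of H4K16pr, with 6814 and 6470 bp in PA and 3782 and 6163 bp in WT.

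Rpl8, whose protein lies near the peptidyl transferase centre, passed in this measure too, but in another way. Its summed peaks averaged 7159, 7884, 7310 and 7009 bp in PA and 2486, 2383, 3379 and 4645 bp in WT (1.20 on the log2 scale, limma adjusted p = 0.0410). The groups did not overlap. The window of Rps16 was touched by 1 peak in 15 of 18 PA libraries, while that of Rpl8 was touched by 1 peak in 6 of 18 PA libraries and by 2 or 3 separate peaks in the others, against 1 peak in 13 of 18 WT libraries. In the window Rpl8 had 3289, 3334, 2859 and 3603 bp in PA and 2486, 2380, 2222 and 2593 bp in WT (851 bp, adjusted p = 0.0505). Peaks that touch the window of Rpl8 reached Commd5, its neighbour, in 18 of 18 PA libraries and 5 of 18 WT libraries. A nearby peak that does not touch the window is not in the summed length. With windows of 5 kb on each side, Rpl8 was covered over 6856 bp in PA and 4910 bp in WT. This WT mean is above every summed WT value, so some nearby WT peaks were not counted. The log2 difference therefore also depends on whether neighbouring peaks touched the window, and the size of this part was not tested. H3K9ac peaks summed to 8410 and 8653 bp in PA and 2797 and 3034 bp in WT, and H4K16bu peaks to 6470 and 9046 bp in PA and 2139 and 1790 bp in WT. For H4K5pr (5331 and 7711 bp in PA, 5378 and 1780 bp in WT) the libraries overlapped.

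**Figure D3:**
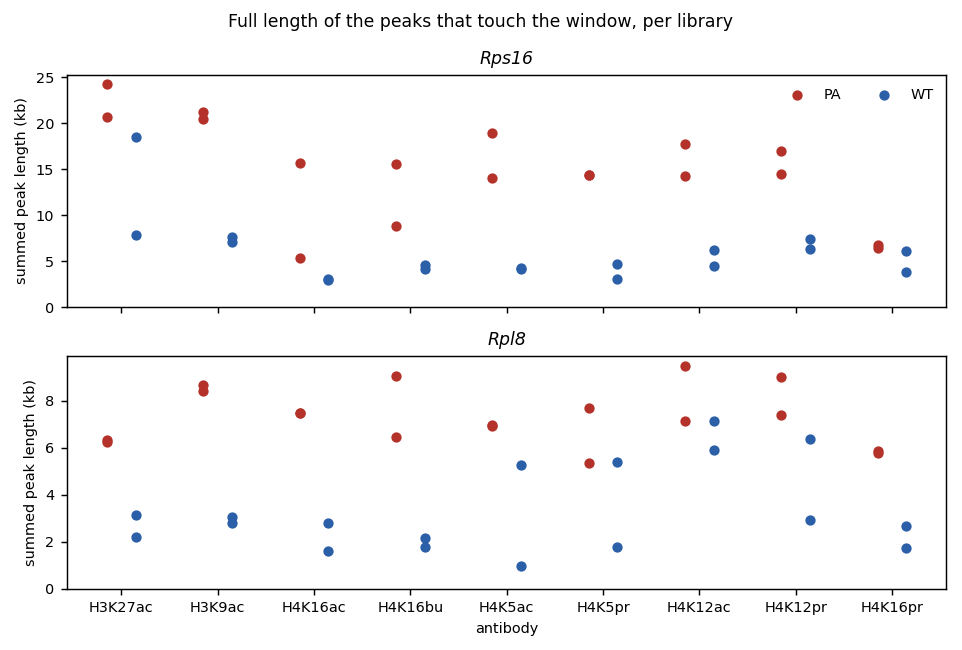
Summed length in kb of all peaks that touch the window of Rps16 (top) and Rpl8 (bottom), for each PA and WT library by antibody (x axis). At Rps16 the PA points lie between 5.38 and 24.2 kb and the WT points between 2.96 and 18.5 kb.

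With windows of 5 kb on each side 18 of 88 ribosomal protein genes rose, where 12.8% of all genes did, and 0 fell. Among them were Rps16 (8722 bp in PA and 6134 bp in WT, limma adjusted p = 0.00839), Rpl8 (6856 bp in PA and 4910 bp in WT, adjusted p = 0.00868) and Rpl12 (6874 bp in PA and 5220 bp in WT, adjusted p = 0.0178). Rps23 (3467 bp in PA and 2295 bp in WT, adjusted p = 0.0226) and Rpl7a (5695 bp in PA and 3353 bp in WT, adjusted p = 0.0331) were among them too. In windows centred on the annotated start, which 66 tested genes have, 1 rose, Rpl5, where 3.95% of all genes did.

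Where the extra coverage lay was read from the 66 genes with a start, set beside 12178 genes. Within 500 bp of the start 93.2% of the bases were covered in PA and 90.4% in WT on the mean of the 9 antibodies. The difference of 2.855 percentage points was near the 2.869 of all genes, and coverage this high leaves little room for an increase. Between 500 and 2500 bp downstream, 52.1% was covered in PA and 41.1% in WT, a difference of 11.0 percentage points where all genes had 5.47 (44.0% in PA and 38.5% in WT). This zone runs past the 3′ end of the shorter genes, such as Rps27 and Rps28, so it is not all gene body. Between 2500 and 5000 bp downstream the ribosomal protein genes had 22.7% in PA and 14.2% in WT, a difference of 8.49 points where all genes had 3.30. Upstream, between 2500 and 500 bp before the start, they had 52.0% in PA and 43.3% in WT (8.67 points, all genes 6.54). The downstream values of the A preparations were 62.7% and 66.0% in PA and 51.4% and 47.2% in WT. Those of the B preparations were 49.1% and 35.7% in PA and 28.2% and 41.0% in WT, which overlap, PA 2B being below WT 2B.

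The marks had different shapes at these genes. Between 500 and 2500 bp after the start H3K9ac covered most, with 77.1% in PA and 70.1% in WT, where all genes had 52.4% in PA and 50.5% in WT. Between 2500 and 5000 bp H4K12pr covered most, with 39.9% in PA and 28.4% in WT, against 27.9% in PA and 18.4% in WT for H3K9ac. Between 2500 and 500 bp upstream H3K9ac had 42.8% in PA and 37.8% in WT. H4K5ac was the reverse, with 23.8% in PA and 20.9% in WT between 500 and 2500 bp downstream, below the 36.6% in PA and 32.9% in WT of all genes, and 56.6% in PA and 49.4% in WT upstream. H4K5pr, taken from the same preparations, had 42.5% in PA and 29.7% in WT downstream and 56.6% in PA and 46.2% in WT upstream. The downstream difference between the genotypes was 20.9 percentage points for H4K16ac (51.3% in PA and 30.5% in WT), 20.3 for H4K16bu (57.7% in PA and 37.4% in WT) and 18.3 for H4K16pr (45.8% in PA and 27.5% in WT). It was -0.386 for H4K12ac (42.6% in PA and 42.9% in WT) and 2.97 for H4K5ac. These shapes are described without a test, and the A and B marks come from different preparations.

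**Figure D4:**
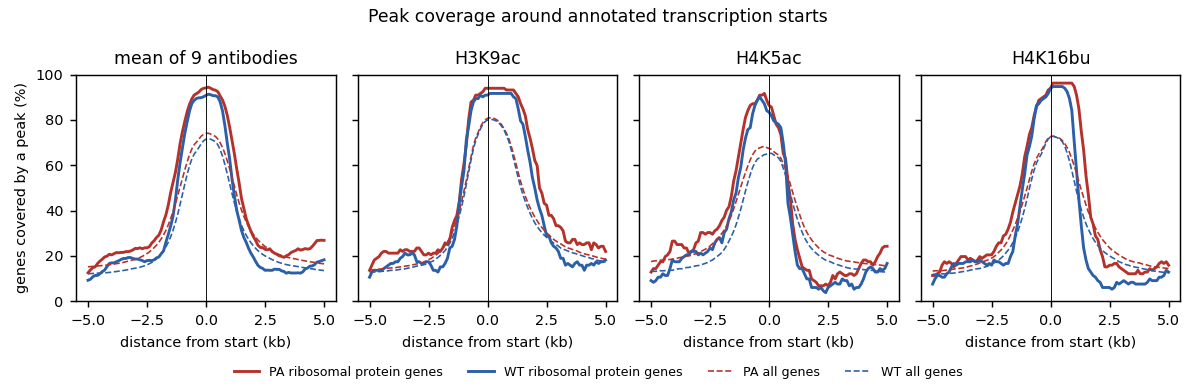
Percent of genes covered by a peak (y axis) against the distance from the annotated start in kb (x axis, gene strand, downstream to the right), for 66 ribosomal protein genes (solid) and 12178 genes (dashed) in PA (red) and WT (blue), each the mean of libraries. The solid PA curve is above the solid WT curve beyond 500 bp on the downstream side for H4K16bu, and the H4K5ac curves drop soon after the start.

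Each antibody was also tested alone, 2 PA against 2 WT libraries, and no ribosomal protein gene passed for any of the 9 (limma adjusted p under 0.05; the smallest was 0.0688, for Rps29 with H3K9ac). Among all genes only H3K9ac had calls, 0.205% higher and 0.148% lower in PA. At an unadjusted p under 0.05, between 2 ribosomal protein genes (H4K12ac, 9.09% of all genes) and 21 (H4K16ac, 24.5%) were found, with 17 for H4K16bu (13.6%), 16 for H4K5pr (17.6%), 9 each for H3K27ac (10.2%) and H3K9ac (9.53%), 7 for H4K5ac (10.5%), and 6 each for H4K12pr (6.8%) and H4K16pr (10.8%). Rps29, a small subunit protein, had 2739 and 3067 bp of H3K9ac in PA and was listed at 0 in both WT libraries, while H3K27ac in the same preparations covered 3076 and 2474 bp in PA and 2365 and 2126 bp in WT.

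The antibodies differed in how many genes had both PA libraries above both WT libraries. For H4K16bu this held at 59 of 86 ribosomal protein genes (68.6%), against 36.6% of all genes and 39 of 77 mitochondrial ribosomal protein genes. For H3K27ac it held at 42 of 86 (48.8%), against 29.4% of all genes, and for H4K5pr at 53 of 86 (61.6%), against 48.7%. H4K16pr had 46 of 86 (44.3% of all genes), H4K16ac 54 of 85 (59.9%) and H3K9ac 29 of 86 (25.9%). H4K5ac with 29 of 86 (33.7%, against 32.6% of all genes) and H4K12pr with 22 of 86 (25.6%, against 25%) were near the background, and H4K12ac with 18 of 87 (20.7%, against 28.2%) was below it. The opposite, both PA libraries below both WT libraries, held at 9 ribosomal protein genes for H4K12ac (8.25% of all genes), 6 for H4K12pr (8.04%), 5 for H3K9ac (12.6%) and 4 for H4K5ac (6.83%). It held at 2 for H4K16bu (8.23%), 2 for H4K5pr (3.66%), 1 for H3K27ac (8%) and 0 for H4K16ac (1.27%) and H4K16pr (2.76%).

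The median over ribosomal protein genes gave the size for each mark. H4K16bu covered 2913 and 3254 bp in PA and 2364 and 2449 bp in WT, and the median difference was 500.75 bp, where all genes had 235 bp. H3K27ac covered 3383 and 3463 bp in PA and 2713 and 2947 bp in WT (386 bp, all genes 153.5 bp). H4K5pr covered 3102 and 2797 bp in PA and 2292 and 2633 bp in WT (591.25 bp, all genes 336.5 bp). For these marks, and for H3K9ac, H4K16ac and H4K16pr, described next, both PA libraries were above both WT libraries in this median.

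H4K16ac covered 3153 and 3138 bp in PA and 2305 and 1918 bp in WT, the largest median difference at 793.5 bp, but all genes differed by 734 bp. H4K16pr covered 3219 and 2733 bp in PA and 1977 and 2478 bp in WT (570.5 bp, all genes 416 bp). H4K12ac covered 3579 and 2988 bp in PA and 2879 and 3132 bp in WT, with a median difference of 67 bp, less than the 166 bp of all genes. The PA and WT libraries of H4K12ac, H4K12pr and H4K5ac overlapped in this median. H3K9ac, with 3556 and 3435 bp in PA and 3342 and 3170 bp in WT, differed by 164.25 bp (all genes 58 bp).

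**Figure D5:**
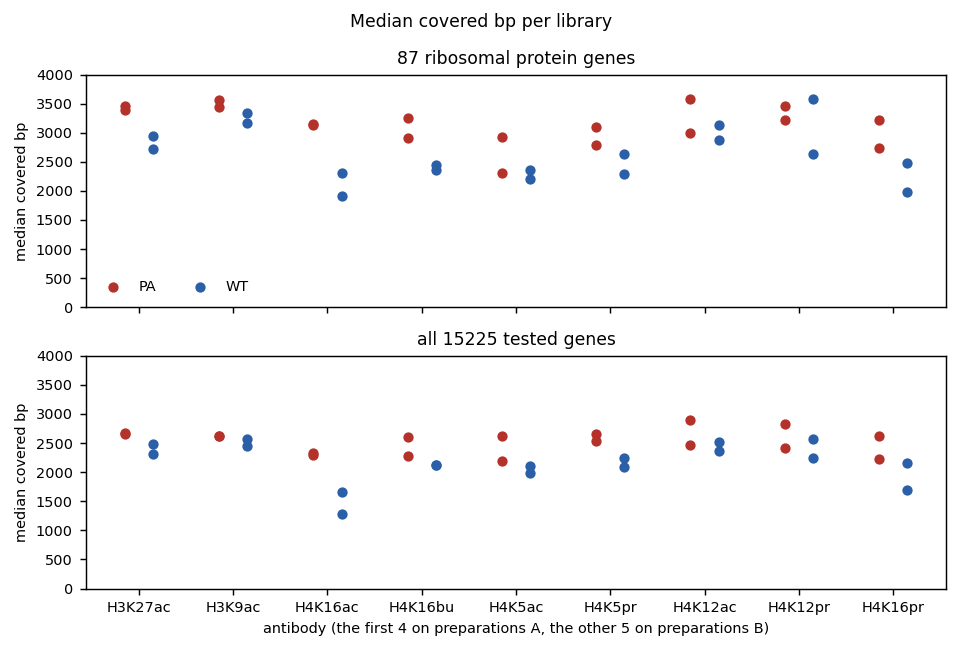
Median covered bp (y axis) of each PA and WT library by antibody (x axis), over the 87 tested ribosomal protein genes (top) and all 15225 tested genes (bottom). PA points lie above WT points in both panels for H3K27ac, H3K9ac, H4K5pr, H4K16ac, H4K16bu and H4K16pr. For H4K5ac they do so in the bottom panel only, and PA and WT points interleave for the H4K12 marks.

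Single genes varied in how many antibodies had both PA libraries above both WT libraries. Rpl30, of the large subunit, was among those with 8 of 9, and 11 genes had 7, Rpl5, Rpl12 and Rps23 among them. The share of all genes with as many antibodies is not given here, so these counts are not set against other genes. At Rpl30, H4K5ac covered 3978 and 3792 bp in PA and 2638 and 3042 bp in WT, and H4K16bu 4249 and 4079 bp in PA and 3230 and 3070 bp in WT. Rpl18 and Rps25 had 0 of 9, and Rps25 averaged 4333 ± 546 bp in PA and 4121 ± 229 bp in WT (SD, n = 4 preparations each).

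Acyl and acetyl marks of the same lysine were compared in the same preparations. H4K5pr covered more than H4K5ac at 71 of 87 ribosomal protein genes by the mean, with a median difference of 332.75 bp, where all genes had 106.25 bp. Over the 4 preparations the median ran from 167 to 573 bp. No ribosomal protein gene passed (limma adjusted p under 0.05), and of all genes 0.116% were wider and 0.0579% narrower in H4K5pr. H4K5pr was wider in all 4 preparations at 21 genes (15.7% of all genes) and narrower in all 4 at 2 (5.69%), and 17 genes had an unadjusted p under 0.05 (13.5% of all).

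Rpl36al came closest, with H4K5pr at 4152 and 4453 bp in PA and 3596 and 3821 bp in WT, against H4K5ac at 2596 and 2010 bp in PA and 2559 and 2039 bp in WT. Every H4K5pr value was above every H4K5ac value, a difference of 1704.5 bp (limma adjusted p = 0.0736). Rps4x had 2869 and 1923 bp of H4K5pr in PA and 626 and 2932 bp in WT. Its H4K5ac was listed at 0 in 3 of 4 libraries and at 630 bp in PA 1B, and the mean difference was 1930 bp (adjusted p = 0.182). Rps2 differed by 1485 bp (3833 bp of H4K5pr and 2348 bp of H4K5ac on average, adjusted p = 0.104). In the other direction Rps24 had 1922 bp of H4K5pr and 2491 bp of H4K5ac, a difference of -569.5 bp (adjusted p = 0.321).

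The median of H4K16bu minus H4K16ac was 163.4 bp at ribosomal protein genes, where all genes had 346.25 bp. It changed sign between preparations, from -190.5 to 437.5 bp, and its difference from other genes was not tested. No ribosomal protein gene passed, and 1.2% of all genes were wider in H4K16bu and 0.00762% narrower. H4K16bu was wider in all 4 preparations at 9 of 86 genes (24% of all genes) and narrower in all 4 at 2 (2.28%), and 8 genes had an unadjusted p under 0.05 (22% of all). Rpl29 had less H4K16bu than H4K16ac in all 4 preparations, with means of 2091 bp of H4K16bu and 2780 bp of H4K16ac (limma adjusted p = 0.196).

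The median of H4K12pr minus H4K12ac was 116.25 bp at ribosomal protein genes, from -94 to 180 bp over the preparations, and -25.7 bp over all genes. No gene of either set passed (0% of all), and the smallest limma adjusted p of a ribosomal protein gene was 0.768. At an unadjusted p under 0.05 there were 4 ribosomal protein genes, where 6.37% of all genes had it. H4K12pr was wider in all 4 preparations at 12 genes (6.33% of all genes), with the largest mean difference at Rpl29 (3750 bp of H4K12pr and 2639 bp of H4K12ac), and narrower in all 4 at 2 (10.3%).

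The second H4K16pr antibody, made in-house and used on WT preparations only, found fewer of these genes. In WT 1B it had a peak at 79 of the 87 tested genes with a median of 1401 bp, where the Thermo antibody had 87 genes and 1977 bp. In WT 2B it had a peak at 46 genes with a median of 500 bp, where the Thermo antibody had 86 genes and 2478 bp. Each of the 46 was also found in WT 1B. They are 52.9% of the tested ribosomal protein genes, against 40.8% of all tested genes with a peak in both in-house libraries.

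Other genes of protein synthesis were read from 3 lists. Of 22 translation factors and other TOP genes 0 passed in the pooled fit, where 4.51% of all genes rose, with 8 at an unadjusted limma p under 0.05 in either direction, where 29.4% of all genes had it. Of 26 genes of ribosome biogenesis and RNA polymerase I 0 passed, with 12 at that unadjusted p, and Nop10, a small protein of the particles that modify rRNA, came closest (2635 ± 88.9 bp in PA and 1772 ± 400 bp in WT, adjusted p = 0.0547). Of 16 genes that control ribosomal protein synthesis, 1 rose, Larp1, whose protein binds the TOP motif of these mRNAs (4587 ± 328 bp in PA and 3327 ± 693 bp in WT, adjusted p = 0.0221; SD, n = 4 preparations each). The list medians, 375.1, 391.6 and 362.3 bp, were above the 245.2 bp of all genes and below the 433.9 bp of the ribosomal protein genes.

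The 38 libraries held 16368 to 70887 peaks, and the sources used here do not give their read depth. With every antibody but H4K16bu, both PA peak lists covered more of the genome than both WT lists. H4K16ac lists covered 116.4 and 104.6 Mb in PA and 74.8 and 47.8 Mb in WT. H4K16bu lists covered 98.5 and 125.0 Mb in PA and 105.6 and 98.5 Mb in WT. All PA minus WT values above come from these lists, and the cause of the size difference was not tested. Hepatocyte markers had a median coverage of 4662 bp, and Alb had 4485 ± 391 bp in PA and 4451 ± 186 bp in WT. Kupffer cell markers had a median of 153.6 bp and 1 of 5 was higher in PA by the mean. Of 4 cholangiocyte markers 3 were listed at 0 in all 36 libraries and Sox9 rose (2918 ± 372 bp in PA and 1877 ± 207 bp in WT, limma adjusted p = 0.0214). Cps1, a hepatocyte marker, rose as well. Medians were 1402 bp for endothelial, 423.7 bp for stellate and 236.3 bp for lymphocyte markers, and 0 of each passed. The part of cell composition in the results above was not tested. The window of Pcca was nearly empty (25 ± 50 bp in PA and 168 ± 203 bp in WT; SD, n = 4 preparations each), and peaks cannot show the A138T allele, so the genotype labels were not checked by it.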

How the data were processed

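The genes and lists were chosen with earlier results of these data known. The authors deposited 1 peak list per library with chromosome, start and end in base pairs and no count, score or p-value. Per the submitters' processing notes, the tools were R 4.1.2, bedtools 2.31.0, HOMER 4.10, SAMtools 1.17, Bowtie2 2.5.1 and cutadapt 3.5 on GRCm38 (mm10), and the sources used here give no roles, settings or depth. No peak was shorter than 500 bp. Rows on chromosome Y (20) were removed, and 8 inputs were not used.

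Gene ends came from a RefSeq table of GRCm38.p6 that gives no strand, so the window of 2.5 kb each side was set at the end with more coverage over all 38 libraries. Genes without a peak in 2 or more of the fitted libraries were dropped, except in the fit of uncapped peak lengths, which kept all 21631 genes. Covered bp were averaged over the antibodies of a preparation and fitted in R 4.3.3 by limma 3.58.1 with a trend, on genotype and on the letter A or B. Single antibodies were fitted on genotype, and acyl against acetyl on mark and genotype. P-values were adjusted by Benjamini-Hochberg over all genes tested at a threshold of 0.05. The fits were tested on simulated data. Zones and motifs used annotated starts from a RefSeq promoter table, and Python 3.11.15 with numpy 2.4.6, pandas 2.3.3 and matplotlib 3.10.9.

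Deviations of preparations 1A and 1B correlated at 0.0591 in PA and 0.173 in WT. Those of PA and WT preparations of the same number correlated at 0.0037 in A and -0.103 in B. A and B carry different antibodies, so the low values cannot tell whether preparations of the same number share a liver. Acyl and acetyl libraries of a preparation are paired by the labels, and the block on preparation changed no call there. Named genes were the 10 with the smallest pooled p, the 5 lowest and 5 highest in coverage, up to 3 per direction and pair, paralogs and called list members. Rps16 and Rpl8 peak lengths, Rps29, Rpl30 and Rps25 were described after their values were seen. A few genes that these rules select are not reported here.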

Additional observations from a re-analysis of the deposited data

Results flagged for a closer look

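At Rpl12 the 4 WT preparations had 1 far from the rest: WT 1B had 2105.0 bp, while the other 3 lay between 2731 and 2793 bp. At Rpl18 PA 2B had 4246.8 bp, apart from the other PA preparations, and WT 2A had 4776.8 bp where the other 3 WT preparations were full at 5000 bp. Chance flags about 1 in 20 such groups. The in-house H4K16pr libraries, which no comparison between PA and WT used, had a peak in both WT libraries at 46 ribosomal protein genes.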

How the results depend on the processing

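Of 206 alternative values for counts of genes called and the pooled median, 173 stayed close to the main value (within 1.5 times for a count), as did 297 of 364 for the other medians and the named genes (same direction and side of the threshold). The 3 pooled increases became 18 with windows of 5 kb each side, 5 with uncapped lengths, 6 without the trend (6.13% of all genes) and, added after seeing the data, 6 with windows absent from 1 library set to missing. They became 1 at annotated starts or without H4K16ac (1.4% of all genes). They became 0 after quantile normalization, with A and B averaged, and, also added later, with the antibodies of A only or of B only, where 2 against 2 leaves few samples. For these settings the share of all genes called is not given here, so the counts are not set against other genes. The causes of the other changes were not tested. The median difference was 728.9 bp with windows of 5 kb each side and 105.9 bp after quantile normalization, which brought all genes to -16.6 bp; on uncapped lengths it has another scale and was not compared. Leaving out 1 preparation gave 0 to 11 genes. Rpl18 turned to 59.7 bp at its annotated start, 111.6 bp with A only and 17.9 bp without PA 2B, and ranged from -262.7 to 17.9 bp over the preparations left out. Rps19bp1 turned to -0.0079 (log2) with uncapped lengths. A block on the replicate number, whose pairing is not labelled, gave 3 increases, the same median of 433.9 bp and, for single antibodies, 0 calls. The shares of all genes called with this block are not given here.

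With a spread shared over antibodies, 15 of 85 ribosomal protein genes passed for H4K16ac (23.2% of all genes), 3 for H4K16pr (0.537%) and 1 each for H3K9ac (2.66%), H4K5ac (4.02%), H4K12pr (0.708%) and H4K16bu (0.703%). With no filter 1 passed for H4K16bu, and the share of all genes in that fit is not given here. Leaving out 1 library leaves a lone library in a genotype, which is then assumed to vary like the others. Counts of genes called in those fits are not reported here. Covered length stops at the window, and a peak list without depth shows where a peak was listed, not how strong the mark was.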
